A study of Mus musculus with 6 samples.

Results

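The genes described here are 8 imprinted genes tied to growth, named by symbol: the growth factor Igf2 and its neighbour H19, the pair Dlk1 and Meg3, the adaptor Grb10, the zinc finger factors Plagl1 and Peg3, and Peg10. They are 8 of 17296 gene symbols found in both deposited tables, and all 8 were present in each. UMI counts (unique molecular identifiers, 1 per captured transcript) were read for them by cell class and library. The organoids are hollow neuroepithelial structures grown in Matrigel from 1 line of mouse embryonic stem cells, Sox1::eGFP;Bra::mCherry, which carries reporters of Sox1 and Brachyury. Every culture received basic fibroblast growth factor at 12 ng/ml and activin-A at 20 ng/ml for the first 3 days and neither factor afterwards. The groups are non-elongated organoids at day 6 (1 library), elongated organoids at day 6 (2 libraries, replicates 1 and 2, labelled as batches 1 and 2), and elongated organoids at day 7, day 8 and day 10 (1 library each). Each library pooled 100 organoids, and those kept past day 6 were moved into fresh Matrigel.

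An imprinted gene is transcribed mainly from the copy inherited from one parent, under the control of regions that carry DNA methylation from only the egg or the sperm. Genes expressed from the paternal copy, such as Igf2, Dlk1, Peg3, Peg10 and Plagl1, tend to promote fetal growth, and several maternally expressed genes, such as H19 and Grb10, tend to restrain it. In the nervous system Grb10 is known to switch to the paternal copy in neurons, and the Dlk1 and Meg3 region is known to be active in neurons. UMI counts do not tell the parental copies apart, so all values below are totals over both alleles.

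The non-elongated library and elongated replicate 1 form the day 6 table, and the other 4 libraries form the table of days 6 to 10. The libraries held 2076 to 3677 cells and 74072752 to 152742819 UMIs, with median depths from 22053 UMIs per cell at day 10 to 59014 in elongated replicate 2. Pairs of libraries shared 1 to 4 cell barcodes. Levels are given in CPM, the UMIs of a gene per 1000000 UMIs summed over the cells named, and intervals are exact 95% Poisson intervals, which cover counting error only. Cells of 1 library are not replicates, so levels by class are descriptions without a test. The classes are the authors', whose clusters were made from the same cells. Log2 fold changes ± SE and adjusted p-values come from edgeR's quasi-likelihood test with Benjamini-Hochberg adjustment over all genes tested, on UMIs summed per library. Only elongated day 6 has replicates, and its 2 libraries differ in batch and table, so these p-values rest on the spread between that pair.

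2 promoters are shown because the results turn on their genes and because both hold TGCCGC, the core of the motif bound by ZFP57, a zinc finger protein known to guard methylation at imprinted regions. The letters are from RefSeq on GRCm38.p6, read 5′ to 3′ on the gene's strand. The first is the 250 bases before an annotated start of Meg3, chr12:109540746-109540995 on the plus strand. The second is 30 bases around the match before an annotated start of Plagl1, chr10:13090730-13090759 on the plus strand.
Meg3: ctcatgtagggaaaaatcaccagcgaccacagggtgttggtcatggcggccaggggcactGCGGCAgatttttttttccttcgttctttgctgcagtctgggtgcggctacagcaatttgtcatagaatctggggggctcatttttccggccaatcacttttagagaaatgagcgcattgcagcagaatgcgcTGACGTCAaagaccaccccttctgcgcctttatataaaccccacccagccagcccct
Plagl1: ctggcgtgttgcGCGGCAaagcccacggca
Capitals mark GCGGCA, which is TGCCGC read on the other strand, 190 bases before the start of Meg3 and 90 bases before that of Plagl1. In Meg3 they also mark TGACGTCA, the palindrome of the cAMP response element, 57 bases before the start. TGCCGC, on either strand, was found in 8.68% of 32851 RefSeq promoter windows of 250 bases, and TGACGTCA in 1.55%. Of the 8 genes, 6 had an entry (11 windows), and 2 windows held TGCCGC. TGACGTCA, searched for after the sequences had been seen, was in 2 windows, of Meg3 and Peg3. The other window of Meg3, chr12:109545148-109545397, held neither motif. A match is a description of these letters and shows no binding.

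Plagl1, a zinc finger transcription factor, rose at day 8 and day 10, and Grb10, an adaptor that restrains signalling from the insulin and insulin-like growth factor receptors, fell at both. H19, a long noncoding RNA, was lower at day 8 and higher at day 10. Against elongated day 6, 3 of the 8 were called at day 8 (1 higher, 2 lower), where 13.4% of all 16379 genes tested were called (6.74% higher, 6.64% lower). At day 10 again 3 were called (2 higher, 1 lower), against 26.4% of all genes (14.1% higher, 12.3% lower). At day 7 edgeR called none of the 8 (4 had an unadjusted p under 0.05), against 3.99% of all genes (1.9% higher, 2.09% lower). DESeq2 called 3 members at day 7 (Meg3, Peg3 and Grb10), 5 at day 8 and 3 at day 10. Over all genes it called 985, 2380 and 4186 at these days. DESeq2 was run without the low count filter, and 3018, 2348 and 2683 genes had no adjusted p. Its counts are therefore not out of the 16379 genes of edgeR, and no share of all genes was computed for them, here or below. The median log2 fold change of the 8 was -0.64 at day 7, -1.03 at day 8 and 0.25 at day 10, where that of all genes lay between -0.01 and 0.00.

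**Figure D1:**
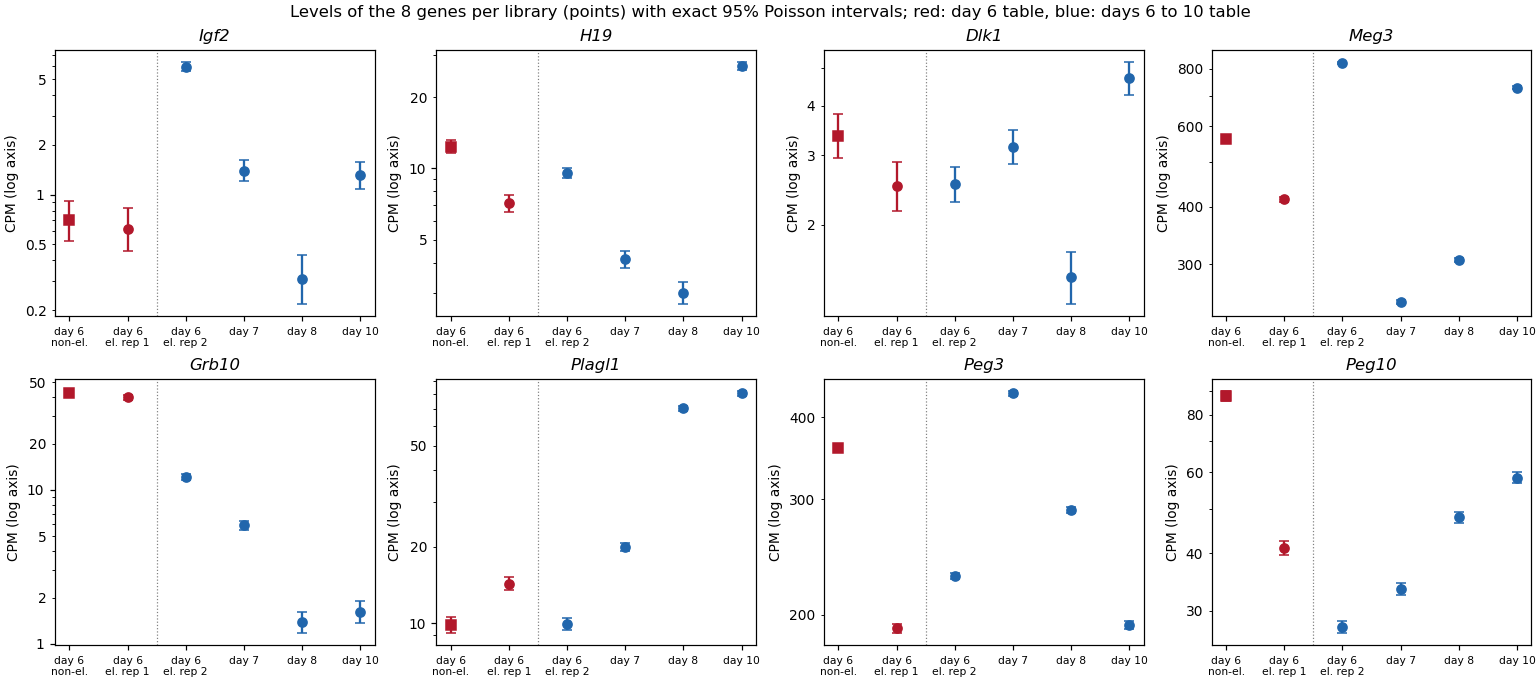
CPM of each gene (log axis) in the 6 libraries, with exact 95% Poisson intervals; red marks the day 6 table (square for non-elongated organoids) and blue the table of days 6 to 10. Plagl1 climbs from 9.94 at day 6 in replicate 2 to 80.3 at day 10, Grb10 drops to 1.61, and the 2 elongated day 6 libraries lie apart for Igf2 and Grb10.

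Igf2 encodes the insulin-like growth factor that drives much of fetal growth, and it was low, at most 5.94 CPM in any library. Its level was 0.70 CPM in the non-elongated library, 0.62 and 5.94 in elongated replicates 1 and 2, 1.39 at day 7, 0.31 at day 8 and 1.31 at day 10. Replicate 2 alone stood out, with 907 UMIs against 48 in replicate 1, a log2 difference of 3.25 between samples of the same label. edgeR called Igf2 in no comparison, DESeq2 called it at day 8 (-3.57, adjusted p = 0.0112), and its edgeR fold changes between groups carried standard errors above 1 (-3.55 ± 1.28 at day 8, adjusted p = 0.113). Within replicate 2 the transcript was thinly spread. After each cell was thinned to 10000 UMIs, 6.39% of cells held a UMI (28.5% before thinning), with 1.04 UMIs per holding cell. All 6 mid/hindbrain clusters of that library lay between 5.05 and 9.31 CPM, and none exceeded 1.39 at day 10. The annotation (GENCODE M21) places exons of Gm49394 on the same strand over Igf2 and of Igf2os on the other, so counts of Igf2 are uncertain where the authors' counting could split such reads.

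H19 lies on chr7:142575530-142578146 in GRCm38, 72.6 kb from Igf2 (chr7:142650768-142666816), and gives rise to a long noncoding RNA and the microRNA miR-675. It measured 7.13 and 9.57 CPM in the elongated day 6 libraries, 4.15 at day 7, 2.99 at day 8 and 27.0 at day 10. The levels dipped below both day 6 libraries at day 8 and lay above both at day 10. The change was -1.62 ± 0.38 at day 8 (adjusted p = 0.0323) and 1.44 ± 0.34 at day 10 (adjusted p = 0.0201). In the neural progenitor classes alone neither call held (adjusted p = 0.0636 and 0.200), and with scaling by library totals alone the day 8 call was lost (adjusted p = 0.0511).

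At day 10 most H19 came from a small part of the cells. The classes that the authors name as neural crest before the epithelial-to-mesenchymal transition (pre-EMT) held 77.3% of the day 10 UMIs of H19 and 12.3% of all UMIs. Their share of H19 was 46.2% at day 6, 60.8% at day 7 and 36.4% at day 8, and the neural progenitor classes held 53.8% at day 6 and 55.5% at day 8. The pre-EMT cranial class stood at 206 CPM at day 6, 42.8 at day 7, 7.88 at day 8 and 180 at day 10 (171 to 190). In the pre-EMT vagal/trunk class the levels were 25.1, 14.1, 31.4 and 142 CPM. Both classes were thus high at day 10, and the cranial class was also high at day 6. At day 10, 44.7% of cranial pre-EMT cells held an H19 UMI after thinning (64.3% before, median depth 28865 UMIs), against 1.39% of dorsal interneurons (2.30% before, median depth 19948.5). Mid/hindbrain cells lay between them at 5.51% (10.7% before, median depth 25975). Outside the crest classes H19 was also higher at day 10 than at day 8, with no test. The 6 mid/hindbrain clusters, parts of 1 library per day, spanned 0.78 to 1.62 CPM at day 8 and 5.96 to 23.1 at day 10. The spinal cord class stood at 2.50 and then 22.5 CPM.

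The names of both pre-EMT classes were only partly matched by markers. The summed level of 8 neural crest markers in the cranial class was 81.9, 129, 39.1 and 117 CPM at days 6, 7, 8 and 10, against 1102 in the migratory cranial crest class at day 10. In dorsal interneurons of day 10 these markers summed to 692 CPM (dI2), 491 (dI3) and 54.6 (dI1). In dorsal progenitors 2/3 of day 10 the sum was 466 CPM, so high sums were not particular to crest classes. Over the whole day 10 library Tfap2b alone gave 130 of the 212 CPM of these markers. The sums by class were not split by gene. In the vagal/trunk class the neural crest markers summed to 31.6, 111, 35.4 and 85.7 CPM, with neural progenitor markers at 506 to 2139. In the cranial class, markers of surface ectoderm and epithelium summed to 1579, 342, 35.8 and 99.7 CPM over the same days. Its neural progenitor markers summed to 236, 708, 1859 and 1565 CPM, above the epithelial sums at each day after day 6. Its mesoderm and mesenchyme markers summed to 150, 38.0, 12.8 and 32.4 CPM. Both classes are called by the authors' names only. H19 and the epithelial markers were both highest at day 6 in the cranial class, and at day 10 H19 stood at 180 CPM with those markers at 99.7. The part of epithelial cells in the H19 levels was not tested. The cranial class counted 52, 133, 76 and 255 cells over these days, and its levels are per UMI of those cells.

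Dlk1 encodes a membrane protein related to the Notch ligands, and Meg3, 77.7 kb away on the same chromosome (chr12:109540996-109571729), a long noncoding RNA expressed from the opposite parental copy. Meg3 measured 563 CPM in the non-elongated library, 415 and 824 in elongated replicates 1 and 2, 248 at day 7, 306 at day 8 and 727 at day 10. Dlk1 was low at 3.36, 2.51, 2.53, 3.15, 1.47 and 4.70 CPM in the same order. Meg3 was lowest at day 7 and Dlk1 at day 8, and both were higher again at day 10. Over whole libraries edgeR called neither (Meg3 -1.16 ± 0.42 at day 8, adjusted p = 0.118, and -0.02 ± 0.40 at day 10, adjusted p = 0.971). The day 10 difference of Meg3 was -0.45 against replicate 2 alone and positive against replicate 1 alone. DESeq2 called Meg3 at day 7 (-1.46, adjusted p = 0.00291) and day 8 (-1.17, adjusted p = 0.0156). Reads of Meg3 and of Gm26906, which overlaps its exons on the other strand, cannot be told apart unless strand was used in counting.

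Whole libraries mixed opposite courses of Meg3 in progenitors and neurons. The neural progenitor classes are mid/hindbrain, spinal cord, proliferative and dorsal progenitors in the table of days 6 to 10. In the day 6 table they are midbrain, hindbrain and spinal cord, and leave out 198 anterior and 378 caudal epiblast cells of replicate 1. The other table has no epiblast class, and mid/hindbrain cells of replicate 2 summed to 225 CPM of epiblast and pluripotent markers. Every progenitor fit here thus rests on duplicates of unlike cell sets. In these classes Meg3 stood at 327 and 827 CPM in elongated replicates 1 and 2, 245 at day 7, 208 at day 8 and 110 at day 10. It was lower at day 10 than in either day 6 library, and the fit on progenitors alone called it (-2.58 ± 0.56, adjusted p = 0.0199), where 17.1% of 15789 genes were called. Each of the 6 mid/hindbrain clusters was lower at day 10 than at day 6 in replicate 2. Their levels ran from 568 to 1168 CPM in replicate 2, 147 to 334 at day 7, 124 to 258 at day 8 and 39.5 to 118 at day 10. The clusters of a day are parts of 1 library and are not replicates. The progenitors of replicate 1, at 327 CPM, lay within the day 7 range. The spinal cord class went from 365 CPM in replicate 2 to 229, 177 and 53.5.

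Dorsal interneurons, neurons born in the dorsal neural tube, held most Meg3 at day 10. The 3 interneuron classes counted 0 cells at day 6, 15 at day 7, 272 at day 8 and 1176 at day 10. Meg3 in them was 1831 CPM at day 8 and 2312 at day 10 (2294 to 2331), which was 8.79 and 21.1 times the progenitor level of the same library. At day 10 these cells gave 89.1% of all Meg3 UMIs and 28.0% of all UMIs. The order at day 10 was dI3 (3349 CPM), dI1 (1860) and dI2 (1628), with no overlap of their counting intervals. A Meg3 UMI was found in 90.9% of interneurons after thinning (93.1% before) against 34.8% of progenitors (52.1% before), at median depths of 19948.5 and 22492 UMIs. The summed level of 8 neuron markers over whole libraries was 177 CPM in elongated replicate 2 and 2970 at day 10.

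Dlk1 followed the same split on a far lower scale. In interneurons it was 2.86 CPM at day 8 and 13.8 at day 10, against 1.18 and 0.56 in progenitors, and 82.2% of the day 10 Dlk1 UMIs came from interneurons. The dI3 class was again the highest of the 3, at 18.9 CPM (166 UMIs). Over progenitors alone Dlk1 fell at day 10 (-2.31 ± 0.55, adjusted p = 0.0267), while over whole libraries its estimate was positive (0.65 ± 0.39, adjusted p = 0.257). The progenitor estimate rests on 29 UMIs at day 10. In the non-elongated library Dlk1 was highest in the mesenchyme class, at 14.2 CPM.

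**Figure D2:**
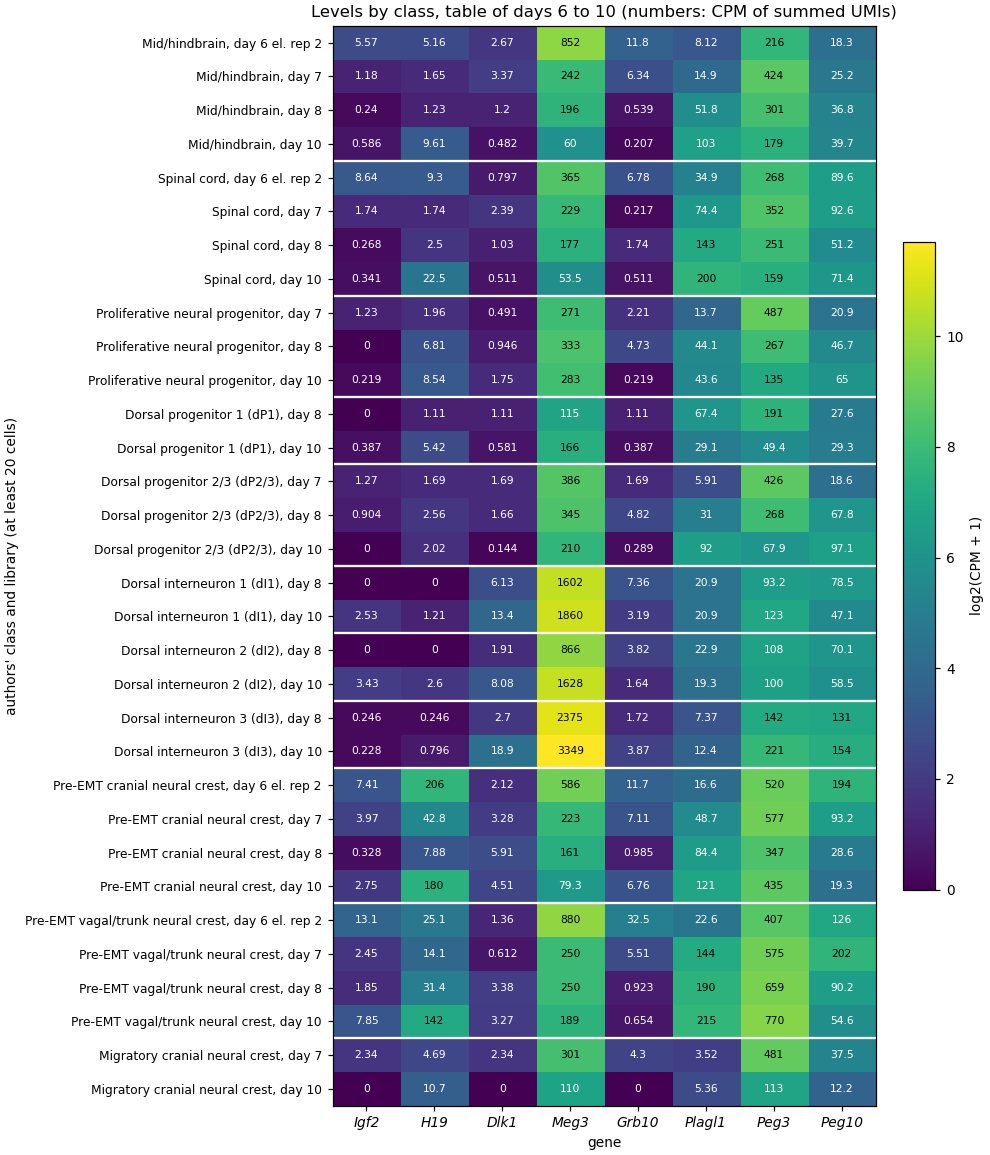
CPM of each gene (columns) in each class and library with at least 20 cells (rows) of the table of days 6 to 10; colour shows log2(CPM + 1) and the printed number is the CPM. Meg3 is highest in the dorsal interneuron rows (866 to 3349). H19 is highest in the pre-EMT cranial rows at day 6 and day 10 and in the pre-EMT vagal/trunk row at day 10. Plagl1 rises with day in the mid/hindbrain and spinal cord rows.

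The genes whose pattern was most like that of Meg3 lie beside it. Over 27 class-by-library sums of at least 50 cells in the table of days 6 to 10, log2(CPM + 1) of Meg3 had a Pearson correlation of 0.96 with B830012L14Rik, 0.96 with Rian and 0.95 with Mirg, the 3 highest of 8581 genes. All 3 are long noncoding RNAs on the same strand downstream of Meg3 (Rian at chr12:109603940-109661716, Mirg at chr12:109729764-109749460) and share no exon with it. B830012L14Rik, as an example, stood at 35.8 CPM in mid/hindbrain cells of day 6, 1.31 in those of day 10 and 52.7 in dI3 cells of day 10. These sums share libraries, clustering and depth, so the correlations are descriptions, and Spearman's rho named the same 3 genes. Between the 8 genes the highest Pearson correlation was that of Meg3 with Dlk1 (0.62; Spearman's rho 0.43). By Spearman's rho the highest was that of Igf2 with Peg3 (0.54), so the order of the pairs depended on the measure.

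Grb10 fell at day 8 and day 10. The elongated day 6 libraries had 39.9 and 12.1 CPM, day 7 had 5.89, day 8 had 1.38 and day 10 had 1.61, and the non-elongated library had 42.4. All later libraries lay below both day 6 libraries, although those 2 differed by -1.68 on the log2 scale (replicate 2 minus replicate 1). The change was -4.35 ± 0.77 at day 8 (adjusted p = 0.0111) and -4.24 ± 0.76 at day 10 (adjusted p = 0.00741), and both calls held in all 6 tested alternatives. Measured against replicate 2 alone, within 1 table, the log2 differences were -3.26 and -3.15. Day 7 was not called (-2.24 ± 0.67, adjusted p = 0.131).

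In progenitors the fall of Grb10 went furthest: 44.5 and 11.6 CPM at day 6 (replicates 1 and 2), 5.87 at day 7, 1.30 at day 8 and 0.27 at day 10. At day 10 those were 14 UMIs over 2085 cells (-6.84 ± 1.01 in the fit on progenitors, adjusted p = 0.00465). Interneurons of day 10 had 2.98 CPM (75 UMIs) and the pre-EMT cranial class 6.76, so that the few Grb10 UMIs left lay mostly outside the progenitors (9.66% of them inside). At day 7 Grb10 sat in few cells at several UMIs each. After thinning, 1.79% of progenitors held it (5.87% before), and these 42 cells held 130 UMIs, up to 11 in a cell. In elongated replicate 1 the share was 24.2% (34.7% before) with 1.94 UMIs per holding cell. Igf2, found in 1.20% of day 7 progenitors (5.91% before), had 28 UMIs in 28 cells. In the spinal cord class the day 6 duplicates lay far apart, with 86.0 CPM (81.6 to 90.5) in replicate 1 and 6.78 (5.05 to 8.91) in replicate 2. The class was assigned separately in the 2 tables, and batch and table cannot be told apart.

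Plagl1 rose at the later days. Its levels were 14.3 and 9.94 CPM in the elongated day 6 libraries, 20.0 at day 7, 70.1 at day 8 and 80.3 at day 10, with 9.87 in the non-elongated library. Every later library lay above both day 6 libraries. Plagl1 was called at day 8 (2.40 ± 0.29, adjusted p = 0.00265) and day 10 (2.48 ± 0.29, adjusted p = 0.00123), where 6.74% and 14.1% of all genes were called as higher. Both calls held in all 6 tested alternatives, the progenitor classes included (2.74 ± 0.35 at day 10). Each mid/hindbrain cluster was higher at day 10, with levels of 7.27 to 10.1 CPM at day 6 and 80.2 to 114 at day 10. The spinal cord class was highest at day 6 and stood at 34.9, 74.4, 143 and 200 CPM over the 4 days. The pre-EMT vagal/trunk class was highest at each later day, with 22.6, 144, 190 and 215 CPM. Interneurons stayed low, at 13.6 CPM at day 8 and 17.5 at day 10, against 70.1 and 99.8 in progenitors. Thinned to equal depth, 49.3% of day 10 progenitors held a Plagl1 UMI (69.7% before) and 14.4% of interneurons (22.1% before).

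The genes most like Plagl1 over the same 27 sums were Cspg5, Nos1ap and Fzd10, a Wnt receptor, each with a correlation of 0.88. The correlation of Plagl1 with Meg3 was -0.60.

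**Figure D3:**
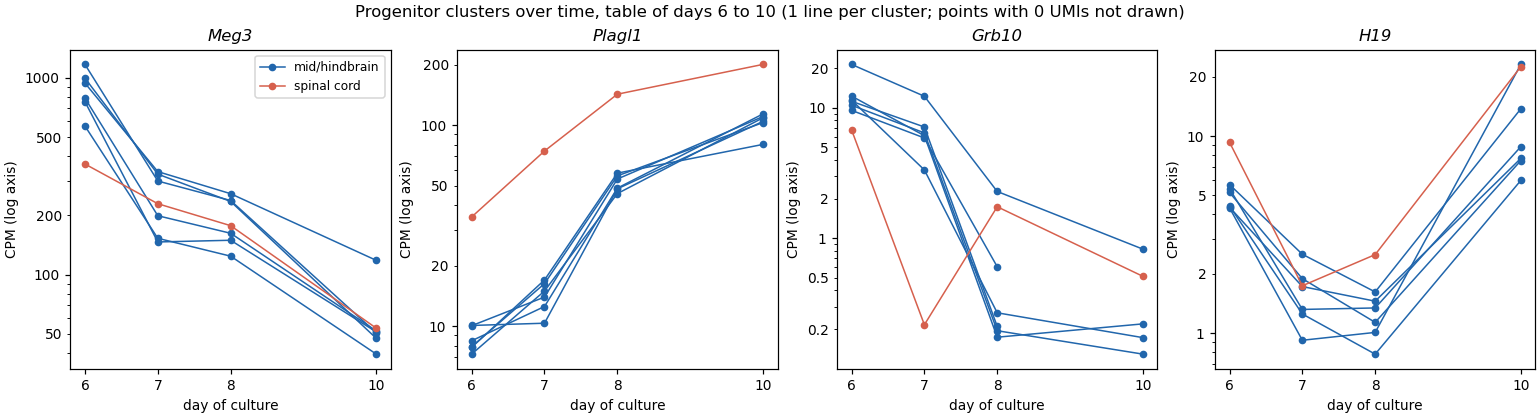
CPM (log axis) of 4 genes by day of culture in the 6 mid/hindbrain clusters (blue) and the spinal cord cluster (red) of the table of days 6 to 10, 1 line per cluster; points with 0 UMIs are not drawn. Meg3 falls and Plagl1 rises in every line from day 6 to day 10, and H19 dips at days 7 and 8 before its level of 5.96 to 23.1 CPM in the mid/hindbrain clusters at day 10.

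**Figure D4:**
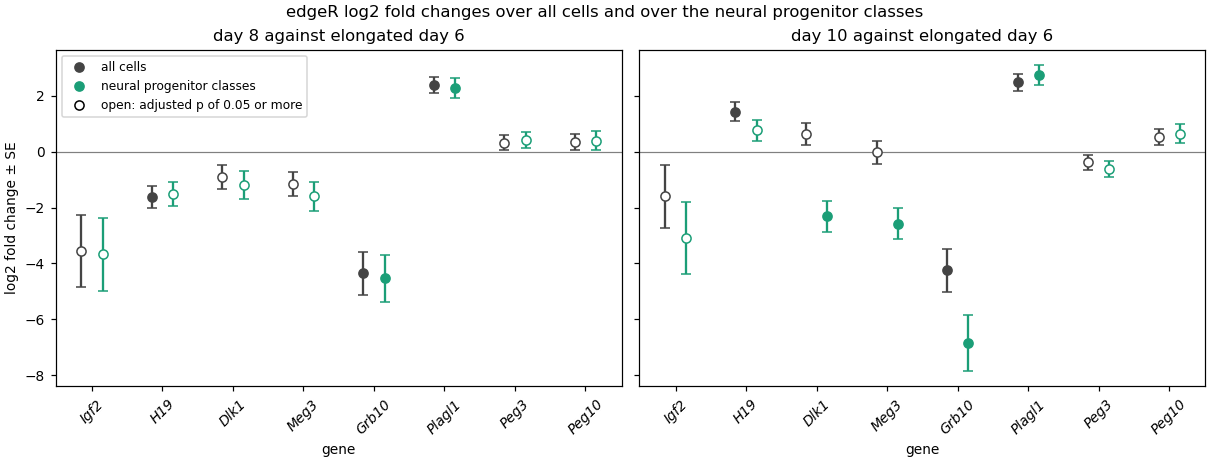
Log2 fold change ± SE from edgeR against elongated day 6 at day 8 (left) and day 10 (right), over all cells (grey) and over the neural progenitor classes (green); filled points passed an adjusted p of 0.05. At day 10 Meg3 lies at -0.02 over all cells and at -2.58 over progenitors, and Dlk1 at 0.65 and -2.31.

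Peg3, a zinc finger protein with roles in growth and cell survival, was expressed in all classes and peaked at day 7. Its levels were 191 and 229 CPM in the elongated day 6 libraries, 435 at day 7, 288 at day 8 and 193 at day 10. Day 7 stood above all other elongated libraries, but the change was not called (0.94 ± 0.26, adjusted p = 0.104), and by DESeq2 it was (adjusted p = 0.0234). In progenitors the course was 171 and 219, then 423, 285 and 145 CPM, and all 6 mid/hindbrain clusters were highest at day 7 (339 to 567). The pre-EMT vagal/trunk class departed from that course, at 407, 575, 659 and 770 CPM. At day 10 the pre-EMT classes held 33.6% of Peg3 UMIs and 12.3% of all UMIs. The lowest day 10 level was in dorsal progenitor 1 cells, at 49.4 CPM. Usp51, Sema3c and Mest had the patterns most like it, with correlations of 0.87, 0.84 and 0.81. Mest is itself imprinted and stood at 1362 CPM in the pre-EMT cranial class of day 10.

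Peg10, a gene derived from a retrotransposon and needed for the placenta, was not called at any day. It measured 41.1 and 27.7 CPM in the elongated day 6 libraries, then 33.5, 47.9 and 58.4 at days 7, 8 and 10. The days 6 to 10 of 1 table formed a rising order, and a fit of the slope over day within that table gave 0.21 ± 0.05 log2 per day (adjusted p = 0.0755). None of the 8 passed in the edgeR slope fit (3 had an unadjusted p under 0.05), in which 10.3% of 16809 genes did (4.73% higher, 5.56% lower). DESeq2 called 3 of the 8 there (Peg10, Plagl1 and Grb10) and 4729 genes in all. Among classes of day 10, dI3 interneurons were highest at 154 CPM, ahead of dorsal progenitors 2/3 at 97.1. The pre-EMT cranial class ran the other way, from 194 CPM at day 6 to 93.2, 28.6 and 19.3.

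In non-elongated organoids, set against the elongated ones of the same day, none of the 8 genes passed the edgeR test (2 had an unadjusted p under 0.05), and neither did any of the 16379 genes (0% called, 1137 at an unadjusted p under 0.05). DESeq2 called 126 genes, among them Peg10 alone of the 8 (1.39, adjusted p = 0.00781). In the edgeR fit Peg10 was 1.36 ± 0.29 (adjusted p = 0.275) and Peg3 was 0.77 ± 0.26 (adjusted p = 0.560). Within the day 6 table, against replicate 1 alone, the log2 differences were 1.12 for Peg10, 0.93 for Peg3, 0.81 for H19, 0.46 for Meg3, 0.44 for Dlk1, 0.19 for Igf2, 0.11 for Grb10 and -0.52 for Plagl1. 1 of the 8 was at least 2-fold apart, where 11.2% of all genes were, and 11.4% were so between the elongated duplicates.

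By class, Peg10 and Peg3 were higher in the non-elongated library in all 6 classes that had at least 20 cells in each library. Counting intervals were separate in 4 classes for Peg10 and 5 for Peg3. These classes come from the same pair of libraries, so they are not independent. Meg3 and Grb10 each had separate intervals too, in 4 classes as higher and in 2 as lower. The share of all genes with such patterns was not counted. Peg10 was widest apart in surface ectoderm, at 212 CPM (non-elongated) and 50.7 (elongated replicate 1), and in spinal cord, at 143 and 62.1. The surface ectoderm class itself differed between the libraries: its epithelial markers summed to 5085 CPM (non-elongated) and 1161, and its neural progenitor markers to 95.6 and 435. Meg3 differed in direction between classes: it was higher in non-elongated spinal cord cells (493 against 226 CPM) and lower in midbrain cells (184 against 473). Grb10 was lower in non-elongated spinal cord cells (46.2 against 86.0 CPM) and higher in midbrain cells (55.4 against 31.3). H19 was highest in the mesenchyme class of the non-elongated library at 84.6 CPM (76.3 to 93.5). Peg3 was also highest there, at 800 CPM. That class had 143 cells in the non-elongated library and 17 in replicate 1.

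**Figure D5:**
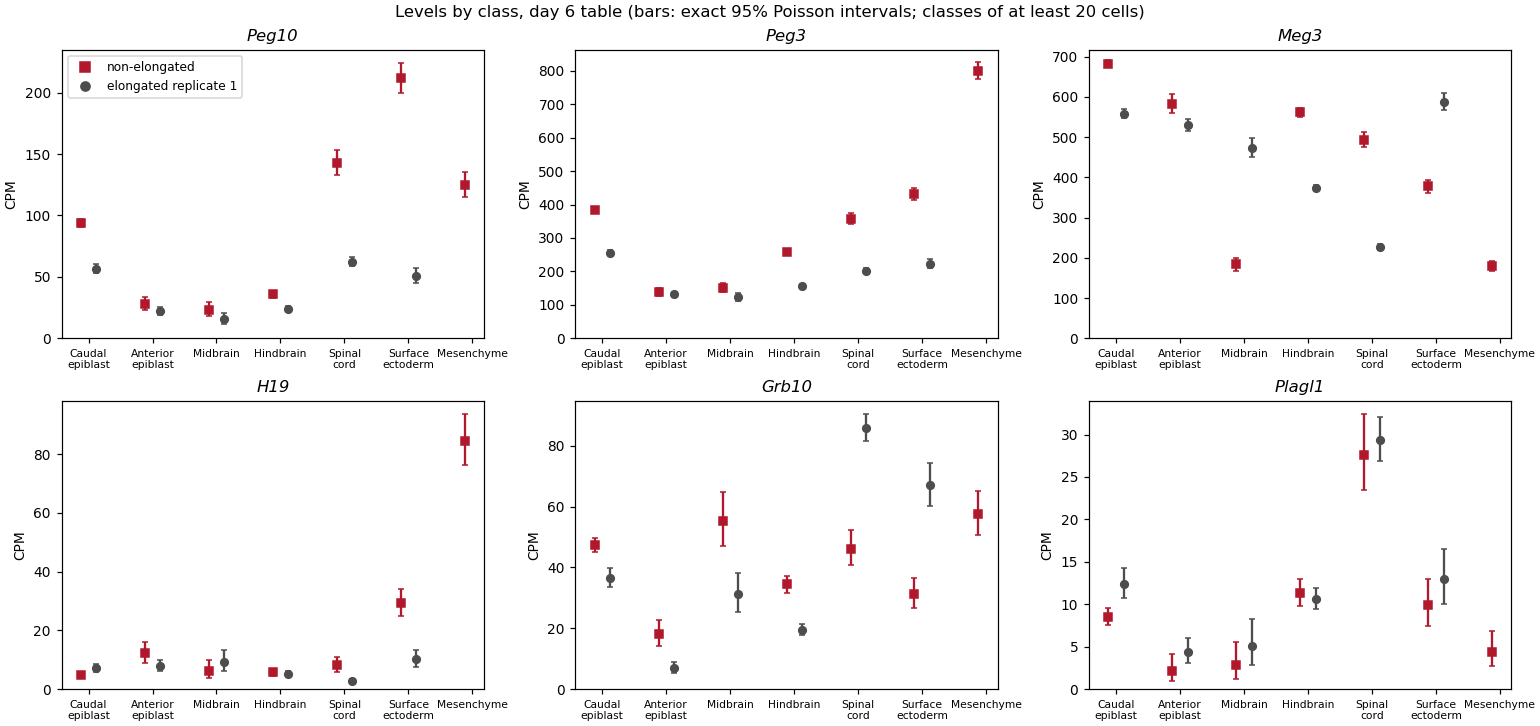
CPM of 6 genes by class in the day 6 table, for the non-elongated library (red squares) and elongated replicate 1 (grey circles), with exact 95% Poisson intervals; mesenchyme of replicate 1, with 17 cells, is not drawn. Peg10 and Peg3 are higher in the non-elongated library in all 6 shared classes, and Grb10 and Meg3 differ in direction between classes.

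Other markers moved with these differences. Over whole libraries, 9 markers of surface ectoderm and epithelium summed to 981 CPM in the non-elongated library and 273 and 144 in the elongated duplicates, and markers of epiblast and pluripotent cells to 552, 232 and 222. Neural progenitor markers summed to 243, 474 and 625 CPM. Their part in the differences of Peg10, Peg3 and H19 was not tested.

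Of 45 other imprinted genes tested, 4 were higher and none lower at day 7, 4 were higher and 4 lower at day 8, and 6 were higher and 6 lower at day 10. Of all genes 3.99%, 13.4% and 26.4% were called at these days, so the 12 of 45 at day 10 are near the background. Their median log2 fold change was 0.01, 0.06 and -0.01 at the 3 days, close to that of all genes. Nnat, a small membrane protein of developing neurons, rose at day 7 (1.36 ± 0.24, adjusted p = 0.0248) and day 10 (1.78 ± 0.24, adjusted p = 0.00208). Inpp5f, a phosphoinositide phosphatase, rose at day 10 (1.73 ± 0.29), as did Mkrn3 (1.52 ± 0.35), and Peg12 rose at day 8 (1.24 ± 0.26). Mest fell at day 10 (-1.31 ± 0.31, adjusted p = 0.0194). At day 10 several of these genes were higher in interneurons than in progenitors, as Meg3 was: Nnat at 2402 against 725 CPM, Ndn at 615 against 91.1 and Snrpn at 394 against 95.2. These 3 were picked after their values were seen.

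Among 18 genes of the insulin-like growth factor axis tested, none was higher and 4 were lower at day 7 and again at day 8, and 5 were higher and 4 lower at day 10. Of all genes 2.09% were called lower at day 7 and 6.64% at day 8, and 26.4% in either direction at day 10. The median of the 18 was -0.11, -0.19 and 0.13. Igfbp2, a secreted binding protein of the ligands, fell at day 7 (-3.77 ± 0.40, adjusted p = 0.00442) and day 8 (-3.00 ± 0.38) and rose at day 10 (1.08 ± 0.31, adjusted p = 0.0410). Igf2bp2, which binds Igf2 transcripts, fell at day 10 (-1.03 ± 0.27). Igf1r, the main receptor, rose at day 10 (1.01 ± 0.25, adjusted p = 0.0226).

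Of 15 factors tested that set, keep or remove DNA methylation or guard imprints, 1 was lower at day 7, 1 was higher and 1 lower at day 8, and 4 were higher and 3 lower at day 10. The 2 of 15 at day 8 are near the 13.4% of all genes called there, and 26.4% of all genes were called at day 10. Their median was 0.16, 0.24 and -0.08. The de novo methyltransferase Dnmt3b fell at day 7 (-2.15 ± 0.29), day 8 (-3.27 ± 0.31) and day 10 (-4.31 ± 0.33, adjusted p = 0.000248). Uhrf1, which recruits the maintenance methyltransferase, fell at day 10 (-1.35 ± 0.27), as did Trim28, the partner of ZFP57 (-1.01 ± 0.27). Tet2 and Tet3, which oxidise methylated cytosine, rose at day 10 (3.33 ± 0.37 and 1.15 ± 0.25). Zfp57 itself rose at day 10 (1.68 ± 0.32, adjusted p = 0.00865), and in interneurons of that day stood at 37.8 CPM against 12.5 in progenitors. The day 10 values of Igfbp2, Igf1r and Zfp57 lie outside the rule for named genes and were picked after they were seen.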

How the data were processed

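Single-cell RNA was measured in 6 libraries made with the 10x Genomics 3′ kit, per the labels' protocols. Reads were processed with Cell Ranger 3.1 and mm10, per the submitters' processing notes, and the annotation and the filters on cells and doublets are not given in the sources used here. The deposited matrices hold raw UMI counts per gene and cell. The authors' metadata give counts per cell and the mitochondrial share in percent, and the deposited names of classes, libraries, barcodes and genes are names only (other). In the day 6 table the library name NENT was taken to mean the non-elongated sample and SENT the elongated one, going by initials. No doublet caller was run.

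UMIs were summed per library, and per class and library with at least 20 cells. Library sums went into edgeR 4.0.16 under R 4.3.3 (TMM, filterByExpr with a minimum count of 10, quasi-likelihood fit with 5 group means, 1 residual degree of freedom, adjusted p threshold 0.05), and the slope over day on the 4 libraries of 1 table. limma 3.58.1 and DESeq2 1.42.0 (an alternative) were also loaded. Shares of cells were thinned to 10000 UMIs with exact Clopper-Pearson intervals, leaving out shallower cells (26 at day 10, at most 8 in any other library). The tests were checked on simulated data. The 8 genes and all lists were chosen with earlier results of these data known. The rule for named genes covers the 8 genes, the 3 genes most correlated with each (printed for Meg3, Plagl1 and Peg3, and 1 result is not reported here), and of 3 lists the called genes with the 5 highest and 5 lowest fold changes and at least 20 CPM in the higher group.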

Additional observations from a re-analysis of the deposited data

How the results depend on the processing

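Plagl1 and Grb10 kept their calls at day 8 and day 10 under each of the 6 alternatives with a test (RLE scaling, scaling by library totals, no filter, a minimum count of 100, DESeq2 and progenitor classes alone). H19 kept its direction at both days, with 4 and 5 of 6 calls. Numbers of genes and members called moved with the tool. For non-elongated organoids, 0 genes became 21 with RLE and 126 with DESeq2 (1 member). For day 7, 654 genes became 372 with a minimum count of 100, 395 in progenitors and 985 with DESeq2 (3 members). For day 8 DESeq2 called 5 members among 2380 genes, and for day 10 progenitors alone gave 2698 genes in place of 4320. For the slope over day, 1730 genes became 4729 with DESeq2 (3 members), 3749 with elongated replicate 1 added (2 members), 0 in progenitors alone, and 0 to 33 when 1 library was left out (33 without elongated day 6 replicate 2, 0 without day 7, day 8 or day 10). With 1 library fewer that fit has fewer residual degrees of freedom. With all libraries kept, signs that turned, for estimates that were not called, were Meg3 with library totals (0.23 at day 10, 0.019 for the slope), and Plagl1 in non-elongated progenitors (0.076). Signs also turned against replicate 1 alone, in TMM-scaled CPM. Igf2 was 0.65 there, below non-elongated (0.74), day 7 (1.37) and day 10 (1.17), where the fits gave -2.24, -1.37 and -1.59. Meg3 was 434 there, below non-elongated (597) and day 10 (648), where the fits gave -0.14 and -0.02. With 1 library left out, slopes ran from -0.93 (without day 10) to 0.92 (without replicate 2) for H19, -0.801 to 0.477 for Meg3, -0.48 to 0.20 for Dlk1 and -0.43 (without replicate 2) to 0.079 (without day 10) for Peg3. For progenitors alone Dlk1 turned to -2.31 at day 10, which was called, and to -0.69 for the slope. The causes were not tested. Means of CPM per cell lay at 0.603 to 1.44 times the CPM of the sum over 309 levels of at least 5 CPM. The most correlated genes depended on the measure: Spearman's rho shared 3 of the 3 for Meg3, 2 for Peg10 and Plagl1, 1 for Dlk1, Peg3 and Grb10, and 0 for H19 and Igf2. Igf2, Dlk1 and late Grb10 are limited by depth. No paired analysis was possible because only elongated day 6 has more than 1 replicate and no number is shared with another group beyond the first.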

Other observations

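The 2 elongated day 6 libraries, which share a label and differ in batch and table, lay apart for several imprinted genes. Of the 8 genes described above, Igf2, Meg3 and Grb10 were at least 2-fold apart (37.5%), and of 45 other imprinted genes 8 were (17.8%), where 11.4% of all genes were. Cdkn1c, a maternally expressed inhibitor of the cell cycle, stood at 46.4 TMM-scaled CPM in replicate 1 and 3.33 in replicate 2, a log2 difference of -3.79. Phlda2, its neighbour and a gene known to restrain placental growth, went from 35.1 to 1.02 (-5.07). Rtl1, in the Dlk1 and Meg3 region, was low in both and higher in replicate 2 (0.095 and 1.21), and Zdbf2 stood at 161 and 336. The non-elongated library, made in the same table as replicate 1, was close to it for Cdkn1c (42.8) and Phlda2 (47.6). Cdkn1c then lay between 4.77 and 8.81 at days 7 to 10 and Phlda2 between 0.26 and 0.89. Batch and table cannot be told apart here, and these genes were picked after their values were seen.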
